A study of Homo sapiens with 6 samples.

Results

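TMT1B encodes a thiol methyltransferase of the endoplasmic reticulum and of lipid droplets, and its transcript was among the largest rises when SKOV3 cells, an established human ovarian cancer line, were grown in 3D. It is described here with its paralog TMT1A and 8 genes of lipid droplet proteins. These are the perilipins PLIN1, PLIN2, PLIN3, PLIN4 and PLIN5, the droplet fusion gene CIDEC, the lipase inhibitor gene HILPDA and the lipase gene PNPLA2. The genes were chosen by name around TMT1B, which had been picked from its rise in the same 3D against 2D comparison, and for each gene the probe set that was brightest on average over the 6 arrays was kept. Of the 10 listed genes 9 were annotated on the array, out of 14884 named genes, and PLIN4 is not analysed here. Because TMT1B was chosen from this comparison, its values are given as a description without a test, and the other 8 genes were tested in a fit across all genes.

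The control cells grew for 11 days on attachment plates (2D, n = 3), and the 3D cells (n = 3) grew for the same time on plates of low attachment with 0.015% (w/v) of FP001, an additive known here only by this code name. Both groups had McCoy's 5A medium with 15% serum, and 1 cell line was used throughout. Because the plate differed along with FP001, the part of each cannot be told apart. No label states that the 3 samples of a condition were grown separately, so the p-values cover the spread between samples that may differ for technical reasons alone. Values are log2 RMA values of whole cultures, in which fewer cells of a type and less RNA per cell cannot be told apart. A difference of 1 on this scale is a 2-fold change.

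A lipid droplet is a store of triglyceride and steryl ester wrapped in a phospholipid monolayer and coated with proteins. Perilipins coat its surface and control the access of lipases. The lipase encoded by PNPLA2 starts the breakdown of triglyceride, the HILPDA protein inhibits that lipase, and the CIDEC protein helps droplets to fuse and grow. TMT1A and TMT1B, formerly METTL7A and METTL7B, are anchored in the endoplasmic reticulum membrane, are also found on droplets, and transfer a methyl group from S-adenosylmethionine (SAM) to thiol compounds.

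The promoters of the paralogs TMT1B and TMT1A are shown because both transcripts were higher in 3D. Among the members with a promoter window, which HILPDA lacked, PLIN2 alone matched ACGTG and is also shown. ACGTG is a form of the core of the hypoxia response element, and other forms were not searched for. The windows are the 250 bases before the annotated start, read 5′ to 3′ on the gene's strand in RefSeq on GRCh38.p14. They lie at chr12:55681486-55681735 on the plus strand for TMT1B, chr12:50924765-50925014 on the plus strand for TMT1A, and chr9:19127493-19127742 on the minus strand for PLIN2. Capitals mark matches on either strand to the motifs searched for. These were ACGTG (a form of the hypoxia response element core), AGGTCA (a nuclear receptor half-site), TATAAA (the TATA box), GGGCGG (a GC box) and TGACTCA (an AP-1 site).
TMT1B: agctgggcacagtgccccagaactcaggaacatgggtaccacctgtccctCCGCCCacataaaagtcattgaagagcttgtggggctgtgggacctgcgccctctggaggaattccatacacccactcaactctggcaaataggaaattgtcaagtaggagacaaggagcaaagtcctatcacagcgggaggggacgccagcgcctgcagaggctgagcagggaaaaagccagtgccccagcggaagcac
TMT1A: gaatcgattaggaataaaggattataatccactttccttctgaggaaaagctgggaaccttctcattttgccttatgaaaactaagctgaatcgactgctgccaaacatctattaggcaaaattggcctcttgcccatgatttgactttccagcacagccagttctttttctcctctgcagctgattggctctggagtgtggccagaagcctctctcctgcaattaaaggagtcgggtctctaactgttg
PLIN2: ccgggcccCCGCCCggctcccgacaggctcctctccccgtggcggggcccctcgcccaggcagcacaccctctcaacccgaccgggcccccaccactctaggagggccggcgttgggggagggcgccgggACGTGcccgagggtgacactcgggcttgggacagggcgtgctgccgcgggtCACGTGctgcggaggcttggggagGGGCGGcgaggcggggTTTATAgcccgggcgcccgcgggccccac

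The TMT1B window held 1 match, a GC box on the reverse strand, and the TMT1A window held 0 of the 5 motifs. The paralogs also differed in base composition, with 57.2% G and C and 6 CpG pairs before TMT1B against 44.4% and 3 before TMT1A. The PLIN2 window was the richest of the windows found for 9 of the 10 genes (all but HILPDA), with 78% G and C and 28 CpG pairs, where the median of 35116 promoter windows was 58% and 11. It held 3 matches to ACGTG, of which a pair overlap as CACGTG. The PLIN2 window also held 1 match to the TATA box, on the reverse strand, and 2 to the GC box. Among all windows of this length, ACGTG occurred in 18.5%, AGGTCA in 12.1%, TATAAA in 10.7%, GGGCGG in 42.6% and TGACTCA in 4.2%. Of the other members, PNPLA2 had an AGGTCA match and a GC box, one of the windows of CIDEC had TGACTCA and the other a GC box, and PLIN3 and PLIN5 had GC boxes. These matches are letters in the window and not measured binding.

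The arrays had similar distributions, with medians of 4.30 to 4.37 and mean quartiles of 2.93 and 6.10. Across genes, 3D replicate 1 stood slightly apart from the other 3D arrays (r = 0.988 with each, against 0.995 between those). Of 10 markers of an ovarian carcinoma line 7 were measured, all with a mean above the array median. Among them was the Müllerian factor gene PAX8 (10.18 in 2D and 10.34 in 3D). Of all 14884 genes 11012 had a mean above that median in at least 1 group. So did 3 of 6 adipocyte, 3 of 5 leukocyte and 3 of 5 fibroblast and endothelial markers over both groups. Ranked by mean among named genes, the 7 ran from percentile 42.3 (WT1) to 98.3 (PAX8). Of the 7 carcinoma markers 2 rose, EPCAM by 1.76 and SOX17 by 1.63, 1 fell, KRT7 (-0.93), and 4 did not pass. For these and the other markers, the share called among all genes was 10.0% (5.23% higher, 4.77% lower in 3D). ERBB2, MUC16 and MUC1 are not analysed here. Of 10 adipocyte markers 6 were measured and 0 were called (limma). At an unadjusted p under 0.05 there was 1, against 3493 of all 14884 genes. All 6 changes were positive, from 0.02 to 0.40, and the groups lay apart for 3, against 29.2% of all genes. The adipokine gene LEP read 3.30 in 2D and 3.70 in 3D, and CFD read 7.39 in 2D and 7.59 in 3D. ADIPOQ, FABP4, LIPE and TUSC5 are not analysed here. The sum of the log2 values of the 6 measured markers ran from 25.7 to 26.5 in 2D and from 26.9 to 27.5 in 3D. Of 5 measured leukocyte markers 2 rose, LYZ by 1.83 and CD68 by 0.68, with sums of 26.3 to 27.0 in 2D and 27.9 to 28.7 in 3D. LYZ was below the array median in 2D (3.24 ± 0.11) and spread more in 3D (5.08 ± 0.65, SD, n = 3). It had 2 probe sets, of which the brighter was used. The other 3, CD14 (-0.41), CSF1R (-0.38) and NKG7 (-0.24), did not pass, and the median over the 5 was -0.24. Of 5 measured fibroblast and endothelial markers 1 rose, PECAM1 by 1.27, with sums of 20.2 to 20.7 in 2D and 21.0 to 22.3 in 3D. The other 4, DCN (0.12), THY1 (-0.01), VWF (-0.04) and KDR (-0.11), did not pass, and the median over the 5 was -0.01. The part of these markers in the results below was not tested.

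TMT1B was about 10-fold higher in 3D and its paralog TMT1A rose about 3-fold, while no perilipin gene passed the test and HILPDA fell. TMT1B read 8.003, 8.47 and 7.43 on the 2D arrays, whereas the 3D arrays gave 11.15, 11.46 and 11.52. Every 3D array lay more than 2 units above every 2D array, and the lowest reading was that of 2D replicate 3. The means were 7.97 ± 0.52 in 2D and 11.38 ± 0.20 in 3D (SD, n = 3), a difference of 3.41 or 10.6-fold, the sixth largest rise among the 14884 genes. TMT1B had a single probe set, so no other reading of the gene was at hand.

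TMT1A read 4.53, 4.29 and 3.77 in 2D and 5.17, 6.30 and 6.07 in 3D. The groups did not overlap, but 3D replicate 1 lay closer to 2D replicate 1 than to either of the other 3D arrays. The rise was 1.65 ± 0.31 (SE, n = 3 per group), or 3.14-fold, with a 95% interval of 0.93 to 2.37 and an adjusted p of 0.0151 (limma). TMT1A ranked 80th by size of rise. The difference between the rises of the paralogs was not tested because TMT1B was chosen for its size. Without 3D replicate 1 the rise was 1.99 (adjusted p = 0.00276). The TMT1A call was lost without 2D replicate 2 (adjusted p = 0.0507), 2D replicate 3 (0.0565) or 3D replicate 3 (0.0619), and when all 53617 probe sets were tested singly (0.0613). In both paralogs 2D replicate 3 was the lowest of the 2D arrays and 3D replicate 1 the lowest of the 3D arrays.

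**Figure D1:**
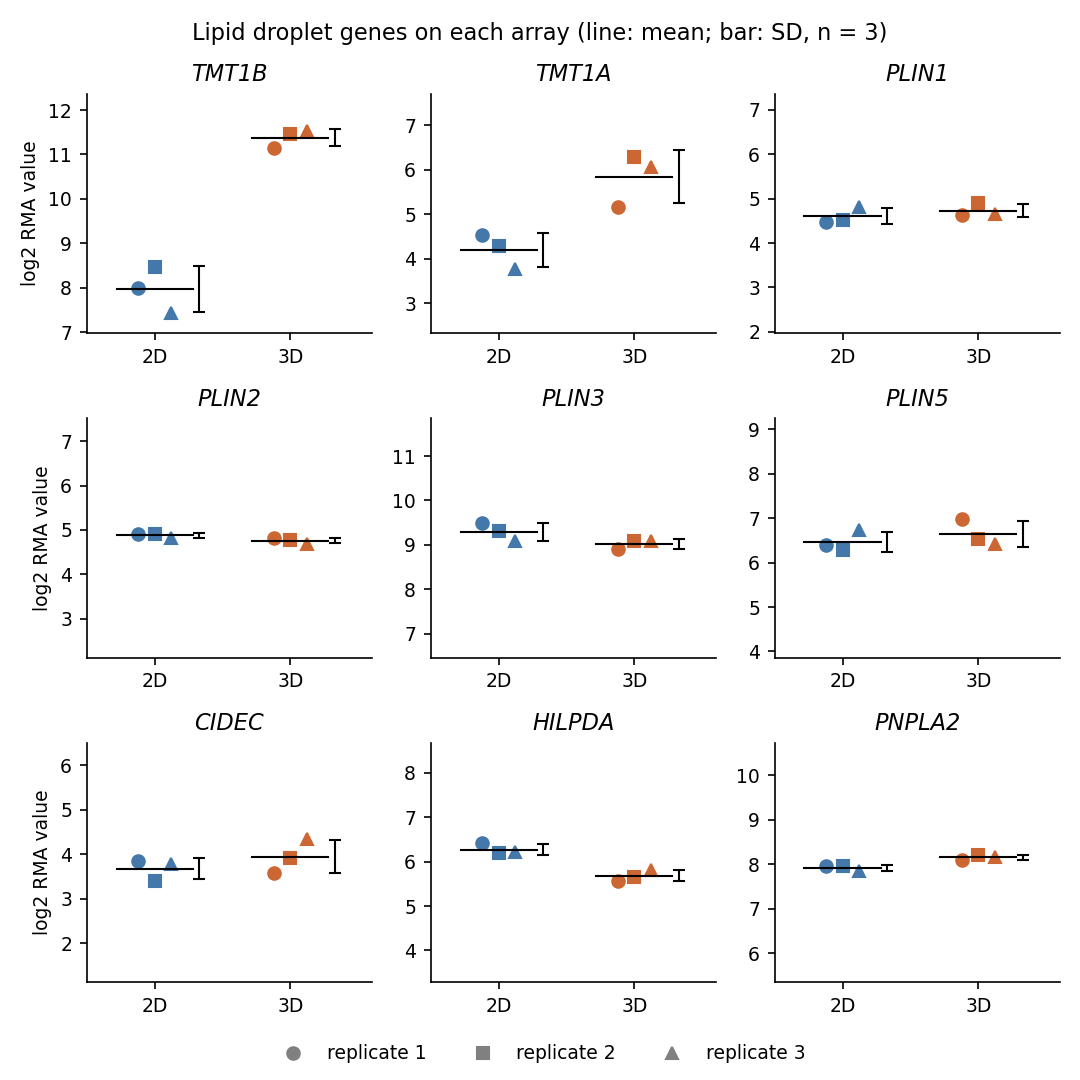
Log2 RMA values of the 9 measured genes (y axis, each panel spanning the same range) on the 3 2D and 3 3D arrays, with marker shape for the replicate, a line for the group mean and a bar for the SD. TMT1B (7.43 to 8.47 in 2D, 11.15 to 11.52 in 3D) and TMT1A stand apart by group, HILPDA is lower in 3D, and the perilipin panels are nearly level.

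The perilipin genes showed no change that passed the test. PLIN2, the coat protein gene of most non-adipose cells, read 4.91, 4.91 and 4.82 in 2D and 4.82, 4.76 and 4.69 in 3D. The lowest 2D value and the highest 3D value differed by less than 0.001, so the groups touched without overlapping. The change was -0.12 ± 0.09 (SE, adjusted p = 0.496, limma), with a 95% interval of -0.33 to 0.09. The PLIN2 probe set is annotated to a non-coding RefSeq transcript of the gene and lay near the array median in both groups.

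PLIN3, whose protein moves from the cytosol onto new droplets, read 9.48, 9.30 and 9.08 in 2D and 8.90, 9.09 and 9.08 in 3D. The groups overlapped at 2D replicate 3, and the change was -0.26 ± 0.13 (SE, adjusted p = 0.263). PLIN5, which links droplets to mitochondria in oxidative tissues, read 6.399, 6.28 and 6.73 in 2D and 6.98, 6.53 and 6.42 in 3D. Its change of 0.17 ± 0.18 (adjusted p = 0.651) shrank to 0.0028 without 3D replicate 1, the highest array. PLIN1, the perilipin of fat cells, went from 4.60 ± 0.18 to 4.73 ± 0.14 (SD, n = 3), with overlapping groups and an adjusted p of 0.635. The 95% intervals reached at most 0.42 for PLIN1, 0.59 for PLIN5 and, on the lower side, -0.56 for PLIN3, so that a measured 2-fold change lay outside each of them. These intervals cover the spread between samples that may differ for technical reasons alone. PLIN1 also lay near the array median, and RMA compresses changes of dim probe sets.

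CIDEC, the droplet fusion gene, read 3.85, 3.40 and 3.79 in 2D and 3.59, 3.92 and 4.33 in 3D. The groups overlapped, and the change of 0.27 ± 0.20 (SE, adjusted p = 0.514) had a 95% interval of -0.21 to 0.74. Its probe set was dim, with a mean below the array median.

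HILPDA, a hypoxia-inducible gene whose protein inhibits the PNPLA2 lipase, was the member that fell. It read 6.42, 6.19 and 6.21 in 2D and 5.57, 5.66 and 5.82 in 3D, with no overlap. The change was -0.59 ± 0.11 (SE, n = 3 per group), 1.504-fold lower in 3D, with a 95% interval of -0.85 to -0.33 and an adjusted p of 0.0163 (limma). Leaving out 2D replicate 1 (adjusted p = 0.0576) or the second 3D replicate (0.0677) ended the HILPDA call, as did the fit with all probe sets tested singly (0.0720).

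PNPLA2 itself, which encodes adipose triglyceride lipase, read 7.96, 7.96 and 7.85 in 2D and 8.10, 8.20 and 8.16 in 3D. The groups did not overlap, but the change of 0.23 ± 0.09 (SE) did not pass over all genes (adjusted p = 0.167, unadjusted p = 0.0336). The other PNPLA2 probe set read 6.87, 7.08 and 6.99 in 2D and 7.33, 6.92 and 6.92 in 3D. There the groups overlapped and the change was 0.08, so the probe sets differed. Among the regulators of this lipase, named after their values were seen, the co-activator gene ABHD5 gave -0.08 (adjusted p = 0.709) and the inhibitor gene G0S2 gave 0.02 (adjusted p = 0.967).

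Of the 8 tested genes, 1 rose and 1 fell, and 6 did not pass. Over all genes 10.0% were called, 5.23% higher and 4.77% lower in 3D. The groups lay apart for 4 of the 8, with 2 higher and 2 lower, against 29.2% of all genes. With so few genes, these counts describe the members and nothing beyond them.

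**Figure D2:**
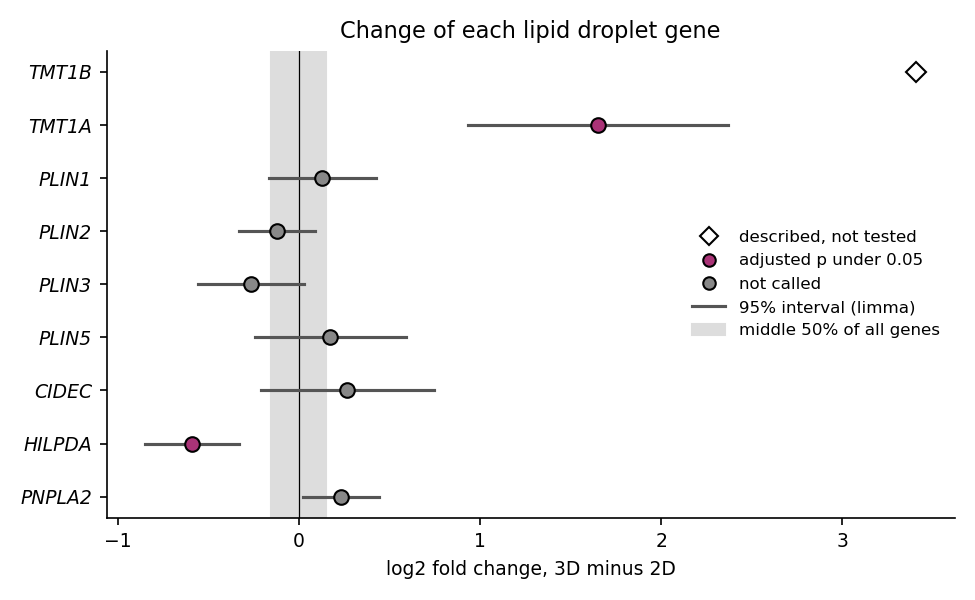
Log2 fold change, 3D minus 2D (x axis), of each measured gene, with limma's 95% interval as a line and the middle 50% of all genes (-0.15 to 0.15) as a grey band. TMT1B (open diamond, 3.41) has no interval because it was not tested, TMT1A and HILPDA passed at an adjusted p under 0.05, and the intervals of PLIN1, PLIN2, PLIN3, PLIN5 and CIDEC include 0.

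The wider setting was described with 8 lists, 6 of lipid storage and use and 2 of methyltransferases, which held 165 distinct genes, 106 of them measured. Of these 16 rose, 5 fell and 85 did not pass (limma). That is 19.8% called against 10.0% of all genes, with a median change of 0.05 against -0.01 over all genes. The share of all genes includes many dim ones. With genes dim in both groups removed, 28 of 97 list genes were called, against 1815 of the 11012 genes kept. The 6 lipid lists had 13 risen and 3 fallen among 71 measured genes (22.5%, median 0.02), and the 2 methyltransferase lists had 3 risen and 2 fallen among 35 (14.3%, median 0.08). Without any one array other than 3D replicate 1, 11 or 12 genes of the 8 lists were called, against 775 to 921 of all genes. Without 3D replicate 1 it was 24, against 1899 of all genes. Of the 21 called genes, 6 were on the list of fatty acid oxidation and PPAR target genes.

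Of 9 measured genes of triglyceride synthesis 0 were called (limma), and their median change was -0.03. At an unadjusted p under 0.05 there were 2, against 3493 of all 14884 genes. These genes were measured without any AGPAT gene. Of 13 lipolysis and steryl ester genes, 2 rose and 0 fell (median 0.02). CES1, a carboxylesterase gene, rose from 5.73 ± 0.15 to 6.69 ± 0.13 (SD, n = 3), a change of 0.96 (adjusted p = 0.00234). Its 2 probe sets differed, and the change was 1.79 with the more variable one and 1.38 with their mean. The triglyceride hydrolase gene PNPLA3 rose by 0.57 ± 0.12 (SE, adjusted p = 0.0213), a call that was lost without 2D replicate 1 or 2 or 3D replicate 2 or 3 (adjusted p up to 0.0884).

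Of 19 genes of droplet formation and other droplet proteins, 3 rose, 1 fell and 15 did not pass (median -0.01). LPCAT2, which makes phosphatidylcholine for the droplet surface, rose by 1.45 ± 0.15 (SE, 2.72-fold, adjusted p = 0.000945). The retinol dehydrogenase gene RDH10 rose by 1.06 ± 0.09 (2.08-fold, adjusted p = 0.000495). CAVIN1, a coat gene of caveolae, fell by 1.03 on the log2 scale (adjusted p = 0.00114). CIDEB, the CIDEC relative known from liver, also rose, by 0.70 (adjusted p = 0.0124), and is named here with its value known. Leaving out 2D replicate 1 or 3 ended its call (adjusted p = 0.0510 and 0.0526). CIDEA, the other relative, gave 0.05 (adjusted p = 0.884) and is likewise named with its value known.

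Fatty acid uptake and activation gave 1 riser among 9 measured genes and a median of 0.04. It was CD36, the fatty acid receptor gene, which went from 2.31 ± 0.19 to 3.20 ± 0.13 (SD, n = 3), a change of 0.89 (adjusted p = 0.00468). Both CD36 means were dim, below the array median.

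The list of fatty acid oxidation and PPAR target genes had 10 measured members, with 5 risen, 1 fallen and 4 that missed the threshold, and a median change of 0.42. The mitochondrial isomerase gene ECI1 rose by 0.76 ± 0.09 (SE, adjusted p = 0.00252), and CPT1A, the gatekeeper of fatty acid entry into mitochondria, rose by 0.71 ± 0.11 (adjusted p = 0.00636). CPT1A read 9.37, 9.26 and 9.33 in 2D and 9.86, 10.06 and 10.16 in 3D, with all 3D arrays above all 2D arrays. ANGPTL4, a PPAR and hypoxia target that inhibits lipoprotein lipase, rose by 0.73 ± 0.13 (adjusted p = 0.0120). The carnitine palmitoyltransferase gene CPT2 (0.56) and the dehydrogenase gene HADH (0.40) rose and the carnitine acetyltransferase gene CRAT fell (-0.38), all named after their values were seen. Without 3D replicate 1 the list again had 5 risen and 1 fallen, but it had 3 risen and 0 fallen without 2D replicate 1 or 3, and 2 risen and 0 fallen without replicate 2 of either group or 3D replicate 3. Calls were lost for CPT2, HADH and CRAT without any single array other than 3D replicate 1 (adjusted p up to 0.107, 0.112 and 0.112). ANGPTL4 lost its call when replicate 2 of either group or 3D replicate 3 was left out (up to 0.0522), and averaging the probe sets of CPT2 left it uncalled (0.37, adjusted p = 0.105).

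**Figure D3:**
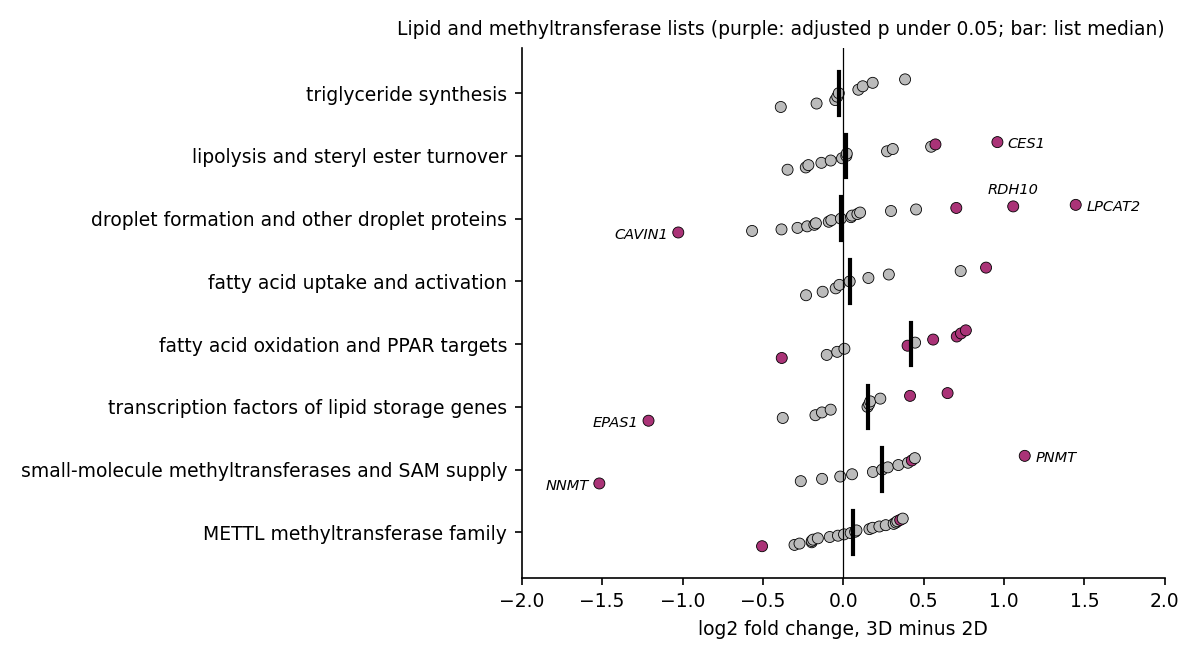
Log2 fold change, 3D minus 2D (x axis), of every measured gene in the 8 lists (rows), with purple points for an adjusted p under 0.05, grey points otherwise and a black bar at the list median. The oxidation list has its median at 0.42, the triglyceride synthesis list has no purple point, and NNMT, EPAS1 and CAVIN1 are the lowest points.

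Of 11 transcription factors of lipid storage genes 2 rose, 1 fell and 8 did not pass (median 0.15). EPAS1, which encodes a hypoxia-inducible factor, fell from 9.75 ± 0.20 to 8.54 ± 0.02 (SD, n = 3), a change of -1.21 (adjusted p = 0.000809). SREBF2, the factor of sterol synthesis genes, rose by 0.65 ± 0.14 (SE, adjusted p = 0.0284). MLX, a partner of the glucose-sensing factor MLXIPL, rose by 0.42 ± 0.09 (adjusted p = 0.0281). SREBF2 lost its call without any of 2D or 3D replicates 2 and 3 (adjusted p up to 0.108), and MLX without any array except 3D replicate 1 (up to 0.113).

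The called genes among small-molecule methyltransferases and genes of SAM supply and clearance did not follow one direction. Of 13 measured genes of this list 2 rose, 1 fell and 10 did not pass (median 0.24). The groups lay apart for 6 higher and 2 lower in 3D, against 29.2% of all genes in either direction. NNMT, the nicotinamide methyltransferase gene, fell from 7.36 ± 0.24 to 5.84 ± 0.18 (SD, n = 3), a change of -1.52 (adjusted p = 0.000900). PNMT, which methylates noradrenaline, rose from 6.22 ± 0.37 to 7.35 ± 0.16, a change of 1.13 (adjusted p = 0.00929). AHCYL1, a relative of the enzyme that clears the product of methylation, rose by 0.43 ± 0.09 (SE, adjusted p = 0.0252), a call lost without any array except 3D replicate 1 (up to 0.0916). Without 3D replicate 1, 4 of the 13 rose and 1 fell.

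Of 22 measured genes that still carry the METTL name 1 rose, 1 fell and 20 did not pass (median 0.06), so 9.09% were called. METTL27 rose by 0.35 ± 0.09 (SE, adjusted p = 0.0452) and the protein lysine methyltransferase gene METTL21A fell by 0.51 on the log2 scale (adjusted p = 0.0382). Both calls were lost without any single array (adjusted p up to 0.161 for METTL27 and 0.129 for METTL21A), and without 3D replicate 1 another 2 of the 22 rose.

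The genes with profiles most like TMT1B were found by the root mean square difference between gene-centred log2 values over the 6 arrays, with the listed genes left out. The nearest was the vesicle traffic gene SYTL5 at 0.23, followed by SUSD2 at 0.26, the carboxypeptidase gene CPM at 0.27, the cytokine gene IL33 at 0.28, LRRC31 at 0.37 and the proteoglycan gene EPYC at 0.39. TMT1A lay at 0.94, and the other members lay between 1.61 (PNPLA2) and 2.02 (HILPDA). SYTL5 read 5.56, 5.63 and 4.93 in 2D and 8.14, 8.59 and 8.48 in 3D. Like TMT1B it was lowest in 2D replicate 3 among the 2D arrays and in 3D replicate 1 among the 3D arrays. SUSD2, IL33, LRRC31 and EPYC had the same lowest arrays, whereas CPM was lowest in replicate 1 of both groups. The genes were picked by closeness to TMT1B on each array, so a shared order is no separate result. LRRC31 rose from 3.75 ± 0.11 to 6.72 ± 0.10 (SD, n = 3) and EPYC from 4.36 ± 0.20 to 7.10 ± 0.11. This measure rewards any gene with a difference of like size, and the 6 arrays form 2 groups.

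**Figure D4:**
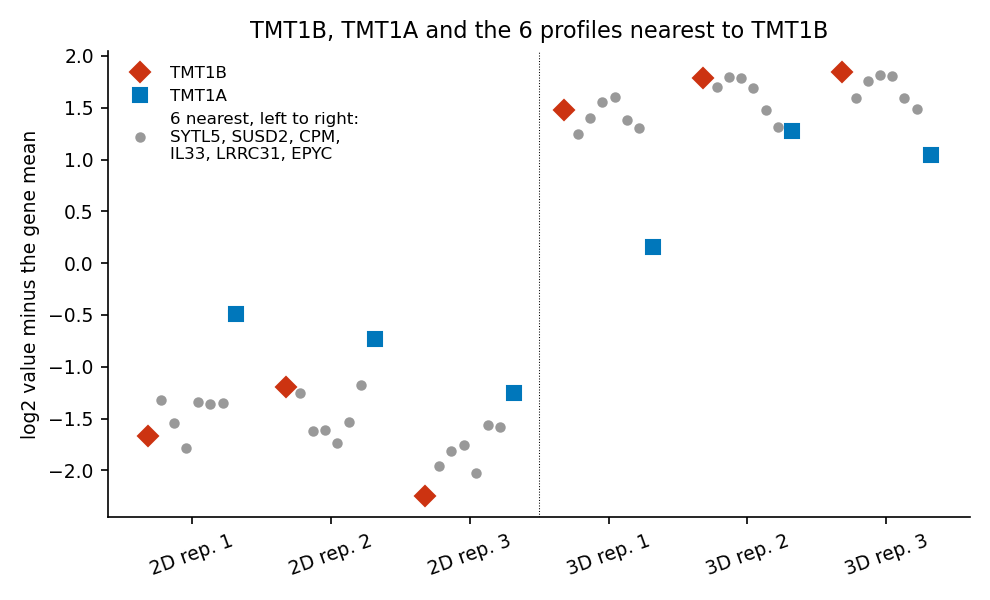
Log2 values minus each gene's mean (y axis) on each array (x axis) for TMT1B, TMT1A and the 6 genes with the smallest root mean square difference to TMT1B. Over the 6 arrays together the root mean square differences of these 6 genes to TMT1B are 0.23 to 0.39, whereas TMT1A (0.94) spans a smaller range and is lower on 3D replicate 1 than on the other 3D arrays.

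TMT1B and TMT1A lie on chromosome 12, far enough apart that their nearest measured genes differ. The 3 nearest measured genes on each side, in RefSeq order, were compared. Around TMT1B, the tetraspanin gene CD63 gave 0.18 ± 0.09 (SE, adjusted p = 0.316), GDF11 gave 0.21 and SARNP gave -0.18 on the side after it. On the side before it, DCD (0.08), MUCL1 (0.06) and NEUROD4 (-0.01) were dim, below the array median. Around TMT1A, LIMA1 gave 0.39 ± 0.12 (adjusted p = 0.0844), MIR1293 -0.17 and DIP2B -0.14 before it, and LETMD1 0.15, CSRNP2 -0.17 and TFCP2 0.05 after it. Of these 12 neighbours 0 passed the test (limma). At an unadjusted p under 0.05 there was 1, against 3493 of all 14884 genes. LIMA1 passed without 3D replicate 1 (0.50, adjusted p = 0.0178).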

How the data were processed

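RNA of 6 SKOV3 samples was measured on 1 array each, from 100 ng of total RNA. Per the submitters' processing notes, the authors made the deposited log2 values with RMA, which corrects background, equalises the array distributions and summarises probe sets. That the scale is log2 was read from the range of the values, while the version, probe grouping and filters were not given in the sources used here. RMA compresses changes of dim probe sets. The probe annotation is that of a Human Gene ST array although the labels name a 3′ IVT kit, which was not resolved.

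Of 53617 probe sets 16098 had 1 gene symbol, 0 had several and 37519 had none, and the probe set with the highest mean represented each of 14884 genes. Symbols were updated through the RefSeq table of GRCh38.p14, in which all 16098 gene identifiers matched. Groups were compared with limma 3.58.1 in R 4.3.3 (lmFit and eBayes, group alone, two-sided) with Benjamini-Hochberg adjustment over all genes at a threshold of 0.05, and the fit was tested on simulated data. The members and lists were chosen with earlier results of these data known. In each list up to 3 called genes with the largest change were named, with the 6 profiles nearest to TMT1B and the 3 nearest measured genes on each side of TMT1B and TMT1A. The alternatives changed the scaling (quantile normalization repeated, or arrays centred on their medians), the features (dim genes removed, probe sets of a gene averaged, its most variable one kept, or every probe set tested singly), the variance prior (trended and robust), the design (replicate number as a block) and the arrays (each left out in turn). Counts per list with each array left out were added after seeing the data. No 2 arrays were identical. The number of arrays limits the precision.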

Additional observations from a re-analysis of the deposited data

How the results depend on the processing

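The TMT1B difference ran from 3.14 to 3.66 when single arrays were left out. It was 3.41 after repeated quantile normalization and after median centring. The remaining alternatives could not move the difference of TMT1B or of any other gene with a single probe set, so they are no check of its size or sign. The 2 calls among the members were lost when all probe sets were tested singly (0 called, 2 at an unadjusted p under 0.05, limma). There the adjustment ran over 53617 tests, of which 7277 had an unadjusted p under 0.05. The called genes of the 8 lists then numbered 10 against 21. Without single arrays, 775 to 1899 of all genes were called against 1488, 1 to 2 members against 2 and 11 to 24 list genes against 21. With the replicate number as a block, which leaves fewer degrees of freedom, 760 genes, 0 members and 12 list genes were called. That fit (limma) had 2 of the 8 tested members at an unadjusted p under 0.05, against 2902 of 14884 genes. No label states that a number pairs samples, so the numbers were not taken as pairs. Same-numbered arrays did not deviate together (correlations of -0.28, -0.06 and -0.18 across genes), and differently numbered arrays gave -0.14 to 0.23. Deviations were taken from the group means, so these correlations depend on each other. Only genes called in the main fit could lose a call, which among the members were TMT1A and HILPDA. In the alternatives that kept all arrays, 4 member values lost it. These were TMT1A and HILPDA with all probe sets tested singly and with the replicate block. So did 23 of 183 values of named list genes, among which ABHD5 and G0S2 had no call to lose. No neighbour was called in the main fit, so none could lose a call. Of 92 neighbour values 2 gained it, both LIMA1 (0.39 with adjusted p = 0.0470 after repeated quantile normalization and 0.0338 with a trended robust variance). None of these member, list gene or neighbour values changed sign. Leaving out single arrays turned the sign of G0S2 (-0.18 to 0.15), DCD (-0.072 to 0.256), MUCL1 (-0.056 to 0.286), NEUROD4 (-0.066 to 0.050) and MIR1293 (-0.446 to 0.081), none of which was called. Dim probe sets such as those of CIDEC, CD36 and the neighbours DCD, MUCL1 and NEUROD4 give compressed changes.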
